A study of Mus musculus with 24 samples.

Results

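Cxcl9 and Cxcl10, together with Cxcl11, are the interferon-inducible chemokines that act through the receptor Cxcr3, and their transcript levels were followed in mouse bone marrow cultures that give dendritic cells. Genes were taken as members when the accession of a probe matched Cxcl9, Cxcl10 or Cxcl11 in the RefSeq gene table, so the rule used names alone. Of these 3 genes, 2 had a matching probe, Cxcl9 with 2 probes and Cxcl10 with 1, which made 3 of 55681 probes and 2 of 20209 features tested. The gene table of the C57BL/6J reference lists Cxcl11 as a transcribed pseudogene, and 0 probes carried its accession, so Cxcl11 has no value here. Bone marrow cells were cultured for 9 days with human Flt3 ligand, a cytokine that drives precursors to become plasmacytoid and conventional dendritic cells, at 100 ng/ml. The mice were wild type (WT) or carried a knockout of Irf5 (Irf5-KO), of Lyn (Lyn-KO) or of both genes (DKO), all on the C57BL/6 background, and the sources used here do not say how the genes were deleted. Cultures of every genotype either stayed unstimulated or received CpG-B ODN (1668), a synthetic DNA that is a ligand of Toll-like receptor 9, at 150 nM for 6 h. Each of the 8 groups had 3 biological replicates, each on its own array (24 arrays in all), and the animals' age is not stated in these sources.

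The chemokines are secreted proteins that draw activated T cells and natural killer cells, which carry Cxcr3, to sites of inflammation. Cxcl9 is best known as a target of interferon gamma, while Cxcl10 answers to type I interferon as well as to interferon gamma and NF-kB. Irf5 is a transcription factor activated downstream of Toll-like receptors, and Lyn is a Src family kinase that is known to restrain myeloid and B cell activation. Plasmacytoid dendritic cells are known for making large amounts of type I interferon when Toll-like receptor 9 is engaged.

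The sequences just upstream of both genes are shown because the neighbouring genes differ in their matches to known interferon and NF-kB motifs. Each sequence is the 250 bases before the RefSeq transcription start in GRCm38.p6, read 5′ to 3′ on the gene's strand, which is the minus strand for both genes. The array design names an older build, so these coordinates belong to GRCm38.p6 alone. The Cxcl9 window is chr5:92328080-92328329 and the Cxcl10 window is chr5:92348890-92349139. Capitals mark every match, on either strand, to 4 motifs, namely the ISRE core (GAAA, any 2 bases, GAAA), the GAS element (TTCNNNGAA), the AP-1 site (TGANTCA) and the NF-kB consensus.
Cxcl9: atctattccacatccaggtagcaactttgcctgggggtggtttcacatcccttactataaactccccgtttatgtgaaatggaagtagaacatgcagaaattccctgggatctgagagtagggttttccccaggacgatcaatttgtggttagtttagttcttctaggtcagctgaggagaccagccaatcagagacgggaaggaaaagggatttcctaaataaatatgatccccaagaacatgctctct
Cxcl10: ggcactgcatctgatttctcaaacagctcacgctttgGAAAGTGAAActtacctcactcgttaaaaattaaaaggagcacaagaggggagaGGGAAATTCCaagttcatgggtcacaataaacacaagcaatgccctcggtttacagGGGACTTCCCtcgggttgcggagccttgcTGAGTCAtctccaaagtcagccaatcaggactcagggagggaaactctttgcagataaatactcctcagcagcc
The Cxcl10 window held 1 ISRE core (GAAAGTGAAA, bases 213 to 204 before the start), 2 NF-kB matches (GGGAAATTCC at 159 to 150 and GGGACTTCCC at 103 to 94) and 1 AP-1 match (TGAGTCA at 74 to 68), none of which overlapped another. The Cxcl9 window held 0 matches to these letters, which says nothing about factors bound there or elsewhere. Of 32817 windows of the same length, 2.97% held the ISRE core, 7.01% the GAS element, 6.75% the AP-1 site and 3.9% the NF-kB consensus. A match is a string of letters, not a measured binding site.

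Levels are given as the log2 of an array's processed signal relative to that array's 75th percentile signal, so 0 is the level of the 75th percentile. That percentile lay between 303 and 568 signal units, 41% to 53.8% of spots were well above background, and arrays of the same group correlated at 0.9909 to 0.9959 over all features. All 3 chemokine probes were well above background on all 24 arrays. Cxcl10 reached 15.6% to 29.7% of the scanner's saturation value with CpG-B, and no chemokine spot was saturated. The Lyn transcript followed the labels, at 0.98 ± 0.20 (SD, n = 3) in unstimulated WT and -0.85 ± 0.09 in Lyn-KO cells. The Irf5 probe read 4.73 ± 0.06 in unstimulated WT and 4.43 ± 0.05 in Irf5-KO cells, so this probe does not check the Irf5 label. Dendritic cell markers (Flt3, Itgax, Zbtb46, H2-Ab1 and Cd74) were above background on every array, and in such bulk RNA fewer cells of a type and less RNA per cell cannot be told apart.

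Cxcl10 was already readable without stimulation and rose to a narrow band of high values with CpG-B. In unstimulated WT cells its log2 levels were 4.59, 3.71 and 3.19 in replicates 1, 2 and 3. The Irf5-KO cultures gave 2.83, 3.39 and 3.1. The Lyn-KO cultures gave 2.25, 1.91 and 2.11. All Lyn-KO values lay below every WT and every Irf5-KO value. The DKO cultures gave 2.26, 3.52 and 2.09, with replicate 2 inside the WT range and the other replicates in or near the Lyn-KO range. With CpG-B, Cxcl10 was 8.64, 8.59 and 8.68 in WT cells. Irf5-KO cells gave 9.10, 9.08 and 9.01. These 3 values lay above all WT values. Lyn-KO cells gave 8.52, 8.64 and 8.82, which spanned the WT values. DKO cells gave 9.15, 9.18 and 9.29, the highest of the 8 groups. From high to low the group means with CpG-B were DKO (9.21 ± 0.08, SD, n = 3), Irf5-KO (9.06 ± 0.05), Lyn-KO (8.66 ± 0.15) and WT (8.64 ± 0.05), where the last pair overlapped. Without CpG-B the order was WT (3.83 ± 0.71), Irf5-KO (3.11 ± 0.28), DKO (2.63 ± 0.78) and Lyn-KO (2.09 ± 0.17), and each neighbouring pair in that order overlapped.

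Cxcl9 was low without stimulation, apart from 1 culture, and was highest in DKO cells with CpG-B. In WT cells the log2 levels were 0.68, -0.08 and -0.36. Irf5-KO cells gave -0.79, -0.57 and -0.49, and Lyn-KO cells gave -0.47, -0.52 and -0.46. These 6 values lay below all WT values. DKO cells gave 0.24, 2.36 and -0.06, so that replicate 2 stood far above the other 11 unstimulated arrays. With CpG-B, WT cells gave 4.87, 4.97 and 4.84. Irf5-KO cells gave 4.95, 5.20 and 5.25. Lyn-KO cells gave 4.58, 4.58 and 4.76, all below WT. DKO cells gave 5.73, 5.47 and 5.46, all above every other array. The group means with CpG-B fell in the order DKO (5.55 ± 0.15), Irf5-KO (5.13 ± 0.16), WT (4.89 ± 0.07) and Lyn-KO (4.64 ± 0.10), where Irf5-KO and WT overlapped. Unstimulated means were 0.85 ± 1.32 in DKO, 0.08 ± 0.54 in WT, -0.48 ± 0.03 in Lyn-KO and -0.62 ± 0.15 in Irf5-KO cells.

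The second Cxcl9 probe was like the first after CpG-B but separated fewer groups without it. It read -0.36, -0.99 and -1.17 in unstimulated WT cells and -0.69, 1.40 and -0.73 in unstimulated DKO cells, again with replicate 2 of the DKO apart. The Irf5-KO cells gave -1.27, -1.15 and -1.20 and the Lyn-KO cells -1.09, -1.37 and -1.31, so on this probe both overlapped WT without stimulation. With CpG-B it read 4.36, 4.31 and 4.21 in WT, 4.39, 4.48 and 4.55 in Irf5-KO, 3.93, 3.90 and 3.84 in the Lyn-KO and 5.0, 4.73 and 4.71 in the DKO cells. On this probe all 4 genotypes were separated from each other after CpG-B, in the order DKO, Irf5-KO, WT and Lyn-KO.

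**Figure D1:**
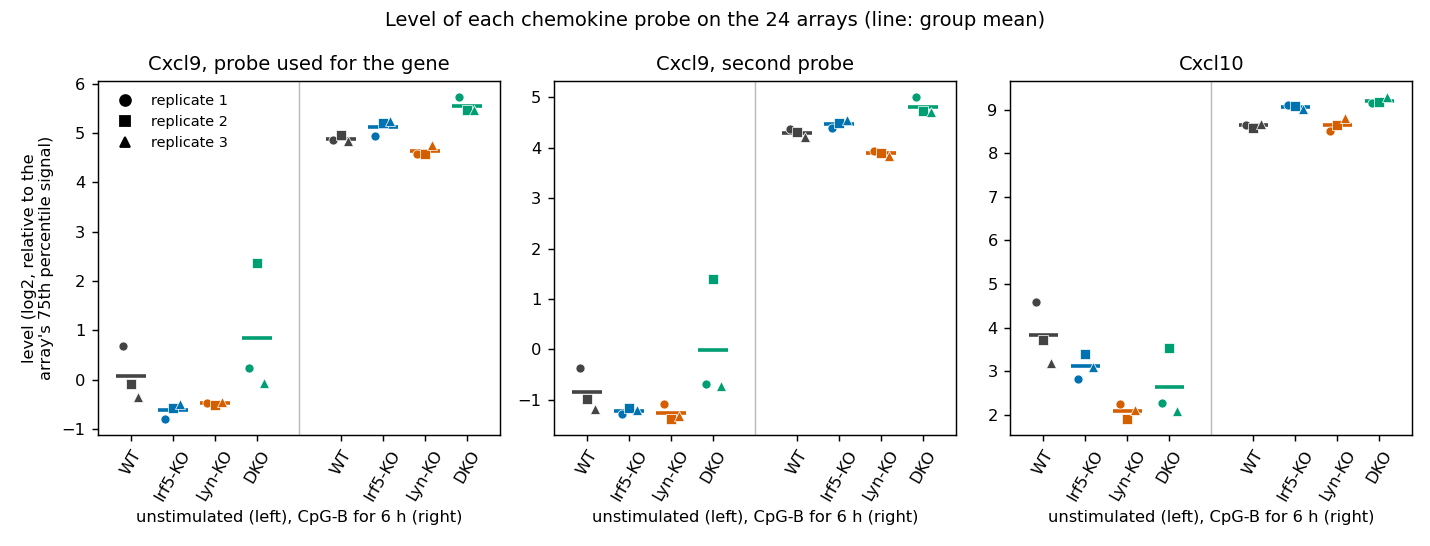
Log2 level of the 3 chemokine probes (y axis, relative to the array's 75th percentile signal) in the 8 groups (x axis), with 1 point for each replicate and a line at the group mean. Both Cxcl9 probes show replicate 2 of the unstimulated DKO apart from its group (2.36 and 1.40), and the CpG-B groups are tight and highest in the DKO.

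Both chemokines rose strongly with CpG-B in every genotype. In WT cells the rise was 4.81 ± 0.40 (log2 change ± SE, n = 3 per group) for Cxcl9, or 28.1-fold, with adjusted p = 2.55e-09 by limma. WT Cxcl10 rose by 4.80 ± 0.31, or 28.0-fold, which only 147 of 20209 features exceeded. The background is large, since 31.2% of features were called higher in WT at an adjusted p under 0.05, 31.6% in Irf5-KO, 32.8% in the Lyn-KO and 34.6% in the DKO cells. The unstimulated and CpG-B values of both genes did not overlap in any genotype, as was the case for 32.6%, 34.8%, 34.9% and 37.0% of features in the upward direction. The 2 genes parted in how their rise varied with genotype. Cxcl10 rose by 5.96 ± 0.31 (62.0-fold) in Irf5-KO, 6.57 ± 0.31 (95.2-fold) in the Lyn-KO and 6.58 ± 0.31 (95.6-fold) in the DKO cells, with 62, 56 and 50 features above it. Cxcl9 rose by 5.75 ± 0.40 (53.8-fold) in Irf5-KO, 5.12 ± 0.40 (34.8-fold) in the Lyn-KO and 4.71 ± 0.40 (26.1-fold) in the DKO cells, with 69, 145 and 182 features above it. Each slide held 1 array of every group, and within slides 1, 2 and 3 the Cxcl10 rise was 4.05, 4.87 and 5.49 in WT, 6.26, 5.69 and 5.91 in Irf5-KO, 6.27, 6.73 and 6.72 in the Lyn-KO and 6.88, 5.66 and 7.20 in the DKO cells. For Cxcl9 the same slides gave 4.19, 5.05 and 5.20 in WT, 5.74, 5.77 and 5.74 in Irf5-KO, 5.05, 5.09 and 5.22 in the Lyn-KO and 5.49, 3.11 and 5.52 in the DKO cells. The low value of 3.11 is from the slide of the unstimulated DKO culture with high Cxcl9, without which the Cxcl9 rise in DKO cells was 5.46 and the Cxcl10 rise 7.03.

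**Figure D2:**
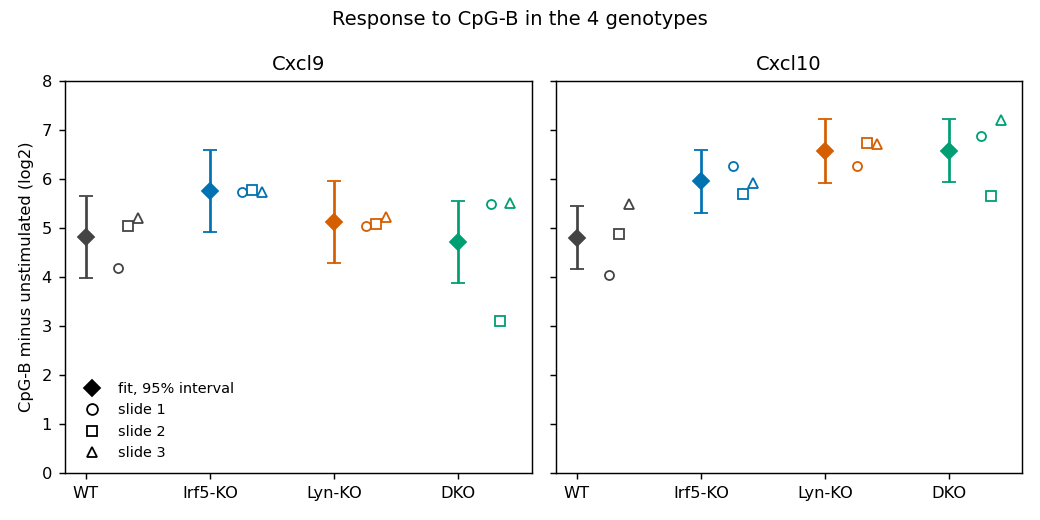
Rise of Cxcl9 and Cxcl10 with CpG-B (y axis, log2 of CpG-B over unstimulated) in the 4 genotypes (x axis). Diamonds and bars are the fitted change and its 95% interval, and open symbols are the differences within slides 1, 2 and 3, where Cxcl10 in WT lies between 4.05 and 5.49 and in Lyn-KO between 6.27 and 6.73.

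Without stimulation the question was whether the knockouts set a different baseline, and the differences from WT that were called lay in Cxcl10, for Lyn-KO and DKO cells. Cxcl10 was 3.34-fold lower in Lyn-KO than in WT cells, a log2 difference of -1.74 ± 0.31 (limma adjusted p = 0.00154), in a comparison that called 4.58% of features (2.75% lower) and in which 9.9% of features lay lower with no overlap. The difference was -2.34, -1.81 and -1.08 within slides 1, 2 and 3. Cxcl10 was also lower in DKO than in WT cells, by -1.20 ± 0.31 (adjusted p = 0.0216, 6.78% of features called, 3.62% as lower), though the groups overlapped. Within slides that difference was -2.33, -0.19 and -1.10, and it was no longer called without replicate 1 of the unstimulated WT (-0.83), replicate 1 of the DKO (-1.02) or replicate 3 of the DKO (-0.94). Irf5-KO and WT cells differed by -0.72 ± 0.31 in Cxcl10 (adjusted p = 0.405, 0.737% of features called). Lyn-KO lay below Irf5-KO cells by -1.02 ± 0.31 (adjusted p = 0.059, 6.08% called) with no overlap, as for 8.88% of features, and DKO and Irf5-KO cells differed by -0.48 ± 0.31 (adjusted p = 0.514).

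For Cxcl9 the 1 called baseline difference was DKO above Irf5-KO cells, by 1.46 ± 0.40 (limma adjusted p = 0.0364), where 5.35% of features were called, 2.48% as higher. Within slides it was 1.03, 2.93 and 0.43. It was 0.71 (adjusted p = 0.0594) without replicate 2 of the unstimulated DKO, and was not called without any 1 of the Irf5-KO replicates (1.38, 1.49 and 1.53). On the second probe it was 1.20 ± 0.36 (adjusted p = 0.071). Against WT, Cxcl9 differed by -0.70 ± 0.40 in Irf5-KO (adjusted p = 0.596) and -0.57 ± 0.40 in Lyn-KO cells (adjusted p = 0.547), both without overlap on this probe (the second probe overlapped) in a direction shared by 11.9% and 9.9% of features. DKO differed from WT by 0.76 ± 0.40 (adjusted p = 0.318) and from Lyn-KO by 1.33 ± 0.40 (adjusted p = 0.312, 0.163% of features called), values that became 0.01 and 0.57 without the high DKO culture. That culture also had the highest level of its group in 14 of 15 type I interferon targets and 11 of 13 interferon gamma targets. In unstimulated Irf5-KO cells replicate 2 was highest in 12 of 15 type I targets, and in Lyn-KO cells replicate 1 in 11 of 15. Their median deviations from the group mean were 0.13 and 0.12, against 0.38 in the DKO culture. Ifng in the DKO culture was -1.83, against -3.24 and -3.02 in the other DKO cultures. It was above background on 2 of 3 unstimulated DKO arrays. Replicate 1 of the unstimulated WT, the highest WT culture for both chemokines, was highest of its group in 15 of 15 type I interferon targets. Without this WT culture the Cxcl10 difference of Lyn-KO from WT was -1.36 (adjusted p = 0.00993). B cell markers moved with the Lyn knockout at baseline, with all 8 of 8 lower in Lyn-KO and in DKO than in WT cells and a summed level (in units of the 75th percentile signal) of 8.51 to 8.59 and 7.63 to 11.1 against 55.4 to 77.2. Their part in the Cxcl10 result was not tested.

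After CpG-B the genotypes differed by less than 1 log2 unit in both chemokines, and no difference was called in the fit of all 24 arrays, whose error is shared with the more variable unstimulated cultures. In that fit Cxcl10 differed from WT by 0.43 ± 0.31 in Irf5-KO (limma adjusted p = 0.362), 0.03 ± 0.31 in Lyn-KO (adjusted p = 0.966) and 0.57 ± 0.31 in DKO cells (adjusted p = 0.145). Cxcl9 differed from WT by 0.24 ± 0.40 (adjusted p = 0.74), -0.26 ± 0.40 (adjusted p = 0.692) and 0.66 ± 0.40 (adjusted p = 0.198). These 3 comparisons called 25.5%, 25.2% and 44.8% of all features. For each gene, 5 of the 6 pairs of genotypes did not overlap. Non-overlapping features in the direction of the chemokines were common, at 20.9% for Irf5-KO above WT, 16.9% for Lyn-KO below WT, 30.6% for DKO above WT, 26.6% for DKO above Irf5-KO, 23.0% for DKO above Lyn-KO and 21.8% for Lyn-KO below Irf5-KO.

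A fit of the 12 CpG-B arrays alone, an alternative chosen after seeing the data, gave the same differences with smaller errors. Cxcl10 was then higher in Irf5-KO than in WT cells by 0.43 ± 0.08 (1.34-fold, limma adjusted p = 0.00336) and in DKO than in WT cells by 0.57 ± 0.08 (1.48-fold, adjusted p = 0.000223). These comparisons called 22.1% and 43.2% of features in this fit. Within slides the values were 0.46, 0.49 and 0.33 for Irf5-KO, and 0.51, 0.59 and 0.61 for DKO. The Cxcl10 difference of Lyn-KO from WT was 0.03, with a 95% interval from -0.15 to 0.20 (adjusted p = 0.849, 22.6% of features called), and the slides gave -0.11, 0.05 and 0.14. Cxcl9 was higher in DKO than in WT cells by 0.66 ± 0.10 (1.58-fold, adjusted p = 0.000461; slides 0.86, 0.50 and 0.61). Cxcl9 differed from WT by 0.24 ± 0.10 in Irf5-KO (adjusted p = 0.127) and by -0.26 ± 0.10 in Lyn-KO cells (adjusted p = 0.0986).

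Between the knockouts, DKO exceeded Lyn-KO cells by 0.91 ± 0.10 in Cxcl9 (1.88-fold, limma adjusted p = 9.48e-05) and by 0.54 ± 0.08 in Cxcl10 (adjusted p = 0.000528) in the fit of 12 arrays, where 28.4% of features were called. The fit of 24 arrays gave adjusted p = 0.0933 and 0.204 for these differences, and called 31.5% of features, against 33% for DKO and Irf5-KO and 34.9% for Lyn-KO and Irf5-KO cells. Lyn-KO lay below Irf5-KO cells by -0.50 ± 0.10 in Cxcl9 (adjusted p = 0.0037) and -0.40 ± 0.08 in Cxcl10 (adjusted p = 0.00291), with 32.4% of features called. DKO exceeded Irf5-KO cells in Cxcl9 by 0.42 ± 0.10 (adjusted p = 0.0106, 30.3% called), while for Cxcl10 the difference was 0.14, with a 95% interval from -0.03 to 0.32 (adjusted p = 0.201). Monocyte and macrophage markers followed a like order after CpG-B, with a summed level of 45.7 to 52.3 in Irf5-KO and 42.3 to 65.1 in DKO cells against 26.5 to 28.0 in WT and 26.2 to 28.3 in Lyn-KO cells. Of 6 such markers tested, 4 were called higher in Irf5-KO and 4 in DKO than in WT cells, and 0 were called lower. The fit of 24 arrays, which gave these counts, called 25.5% and 44.8% of all features in these comparisons. In WT cells 4 of the 6 markers fell and 2 rose with CpG-B, where 37.2% of all features were called lower and 31.2% higher. The number of cells and the RNA per cell cannot be told apart in such bulk RNA. The part of these markers in the chemokine differences was not tested. Plasmacytoid dendritic cell markers summed to 755 to 831 in the Lyn-KO and 744 to 798 in the DKO cells against 487 to 537 in WT and 460 to 524 in Irf5-KO cells, an order that the chemokines did not share.

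**Figure D3:**
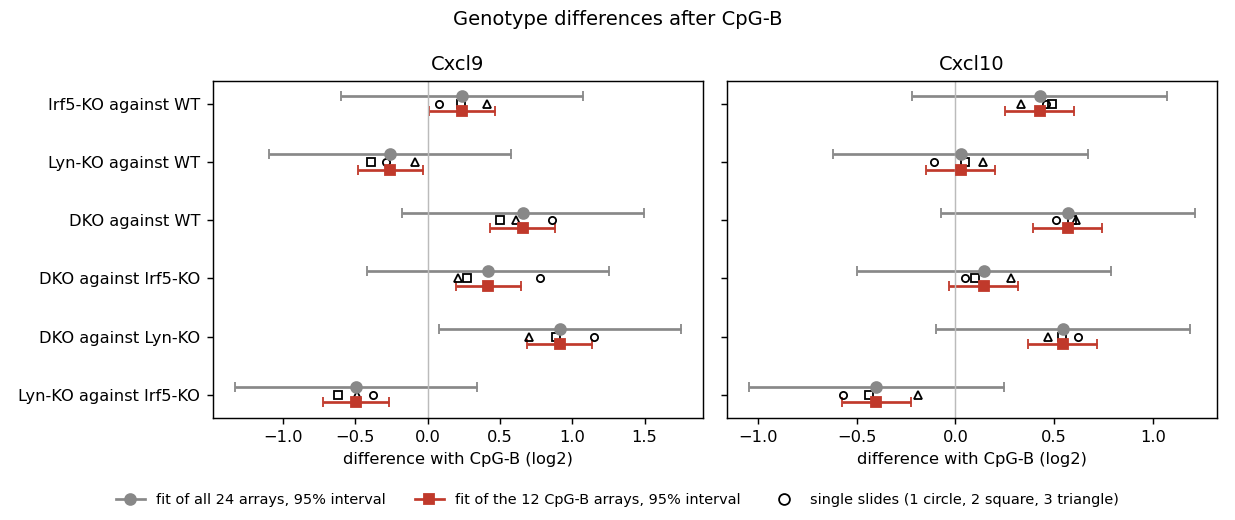
Differences between genotypes after CpG-B (x axis, log2) for the 6 pairs (y axis), from the fit of all 24 arrays (grey) and of the 12 CpG-B arrays (red), each with its 95% interval, and from single slides (open symbols). The estimates are the same in both fits and the intervals are narrower in the second, where 4 Cxcl9 and 4 Cxcl10 differences were called.

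Whether the genotype altered the rise itself was tested with interaction terms. The Cxcl10 rise was larger than in WT by 1.77 ± 0.43 in Lyn-KO cells (limma adjusted p = 0.0114), where 11.1% of features had a changed response and 6.05% a higher one. It was larger by 1.77 ± 0.43 in DKO cells (adjusted p = 0.00401), where 30.5% of features were called and 17.3% called higher. Within slides the change was 2.22, 1.86 and 1.22 for Lyn-KO and 2.84, 0.78 and 1.71 for DKO. In Lyn-KO cells the baseline difference from WT was -1.74 and the difference after CpG-B 0.03, so that the groups differed at the start of the rise and not detectably at its end. In Irf5-KO cells the Cxcl10 change was 1.15 ± 0.43 (adjusted p = 0.0974, 12.6% of features called). The Cxcl9 rise changed by 0.94 ± 0.56 in Irf5-KO (adjusted p = 0.351), 0.31 ± 0.56 in Lyn-KO (adjusted p = 0.807) and -0.11 ± 0.56 in DKO cells (adjusted p = 0.917). The last value was 0.65 (adjusted p = 0.0828) without replicate 2 of the unstimulated DKO.

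Whether the effect of the Lyn knockout depended on Irf5 was tested with the second interaction. At baseline the difference of differences was 2.03 ± 0.56 for Cxcl9 (limma adjusted p = 0.374) and 1.26 ± 0.43 for Cxcl10 (adjusted p = 0.587), where 0.0841% of features were called. After CpG-B it was 0.68 ± 0.56 for Cxcl9 (adjusted p = 0.65) and 0.12 ± 0.43 for Cxcl10 (adjusted p = 0.947), where 3.61% of features were called. In the fit of the 12 CpG-B arrays the Cxcl9 value was 0.68 ± 0.14 (adjusted p = 0.0521), with 1.07, 0.66 and 0.29 within slides, and 1.5% of features were called.

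The levels of both chemokines were also set beside each other culture by culture. In unstimulated WT cells the cultures had the same order in both genes, with replicate 1 highest (0.68 in Cxcl9 and 4.59 in Cxcl10) and replicate 3 lowest (-0.36 and 3.19). In unstimulated DKO cells the order was also the same in both, with replicate 2 highest (2.36 and 3.52) and replicate 3 lowest (-0.06 and 2.09). The order differed between the genes in unstimulated Irf5-KO and Lyn-KO cells. After CpG-B it was reversed in WT, Irf5-KO and DKO cells, so that WT replicate 2 was highest in Cxcl9 (4.97) and lowest in Cxcl10 (8.59). In Lyn-KO cells with CpG-B replicate 3 was highest in both (4.76 and 8.82). No correlation across cultures is given, because each genotype has 3 cultures per treatment and most pairs of genotypes separate in 1 or both genes, so the relation within a genotype could not be tested.

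**Figure D4:**
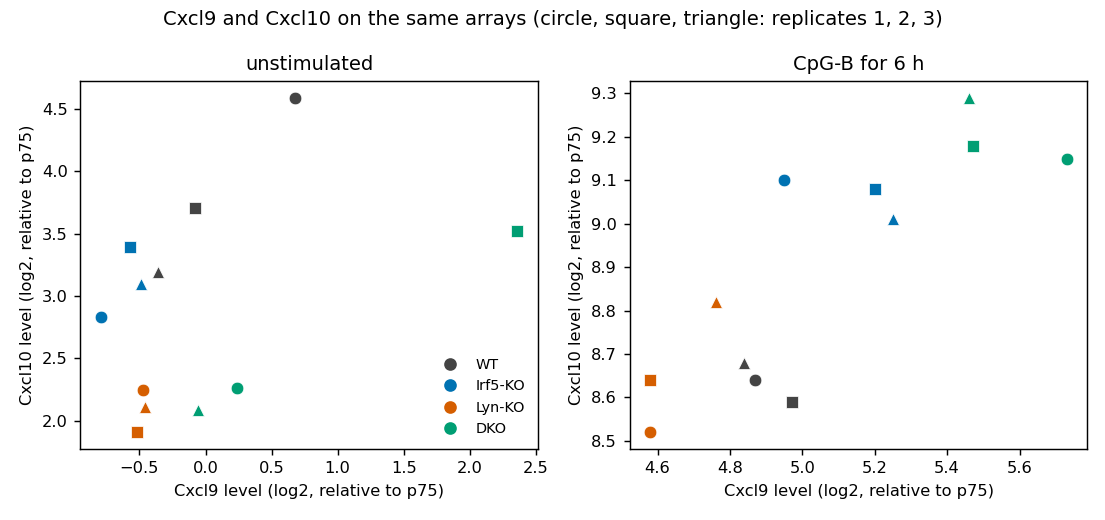
Cxcl10 level (y axis) against Cxcl9 level (x axis), both as log2 relative to the array's 75th percentile signal (p75), for the 12 unstimulated and the 12 CpG-B cultures, coloured by genotype. After CpG-B the Irf5-KO and DKO cultures lie above 9 in Cxcl10 and the WT and Lyn-KO cultures below 9, while replicate 2 of the unstimulated DKO stands alone at a Cxcl9 level of 2.36.

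The receptor moved opposite to its ligands. Cxcr3, which binds all 3 chemokines, stood at 3.86 ± 0.06 in unstimulated WT cells and at -1.82 ± 0.26 with CpG-B, a fall of -5.68 ± 0.15 (limma adjusted p = 8.42e-17), in a comparison where 37.2% of features were called lower. After CpG-B it was -1.57, -1.80 and -2.09 in WT, -0.43, -0.95 and -0.72 in Irf5-KO, -1.15, -1.03 and -0.63 in the Lyn-KO and 0.96, 0.92 and 1.02 in the DKO cells. Thus the DKO cells had the highest Cxcr3 as well as the highest Cxcl9 and Cxcl10 after CpG-B. Dpp4, a surface peptidase that trims and inactivates these chemokines, rose by 1.21 in WT cells to 3.83 ± 0.17 and was lower in DKO than in WT cells by -0.52. Ackr1, an atypical receptor that binds CXC chemokines without signalling, exceeded background clearly on every array of Lyn-KO cells (-1.23 ± 0.09 unstimulated, -2.76 ± 0.31 with CpG-B) and DKO cells (-0.54 ± 0.05 and -1.25 ± 0.17). In WT cells it was above background on 1 of 3 unstimulated and 0 of 3 CpG-B arrays.

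The interferons that induce the chemokines did not follow the same order of genotypes. Of 15 interferon ligand genes tested, 14 were called higher with CpG-B in each genotype (median change 4.72 in WT against -0.03 over all features). From 31.2% (WT) to 34.6% (DKO) of all features were called higher. Only 1 of the 15 was well above background on all 12 unstimulated arrays, so many of these rises start at or near background. Another 4 were not well above background on any unstimulated array and were kept through their CpG-B arrays. Ifnb1, the interferon beta gene, read 2.47, 2.51 and 1.97 after CpG-B in WT, 0.30, -0.21 and 0.15 in Irf5-KO, 4.99, 5.05 and 5.07 in the Lyn-KO and 2.93, 2.77 and 2.74 in the DKO cells. After CpG-B 11 of the 15 ligands were lower in Irf5-KO than in WT cells (median -0.96), while Cxcl10 differed by 0.43 and Cxcl9 by 0.24. In Lyn-KO cells 14 of 15 were higher than in WT cells (median 2.80), while Cxcl10 differed by 0.03 and Cxcl9 by -0.26. In DKO cells 12 of 15 were higher (median 1.52), Ifnb1 by 0.49 ± 0.25 (limma adjusted p = 0.12), and the chemokines by 0.66 and 0.57. In the same order of knockouts, 25.5%, 25.2% and 44.8% of all features were called in either direction. Most of the 15 ligands are interferon alpha genes, which changed alike between genotypes. After CpG-B, Ifna1, Ifna2 and Ifna14 had means of 2.07, 2.07 and 2.06 in WT and 4.67, 4.87 and 4.88 in Lyn-KO cells. The ligand counts are therefore not counts of independent genes. Ifng, the gene of interferon gamma, read 1.26, 0.95 and 1.05 in WT, 0.81, 0.56 and 0.68 in Irf5-KO, 1.45, 1.02 and 1.11 in the Lyn-KO and 1.65, 1.84 and 1.51 in the DKO cells after CpG-B. Its DKO values were above all others, and the difference from WT was 0.58 ± 0.26 (adjusted p = 0.0795). These comparisons share the WT arrays.

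Type I interferon targets, antiviral genes such as Ifit1, Isg15 and Oas1a, were set beside Cxcl10, which is known to answer to type I interferon among other inputs. Which input acted in these cultures was not tested. All 15 targets tested rose with CpG-B in WT cells, with a median of 5.65, where 31.2% of all features were called higher. At baseline 12 of 15 were lower in Lyn-KO (median -1.05, all features 0.01) and 12 of 15 in DKO cells (median -0.98, all features 0.00) than in WT cells, where Cxcl10 differed by -1.74 and -1.20. Of all features, 2.75% and 3.62% were called lower in these comparisons. Rsad2, the antiviral enzyme viperin, was lower by -1.88 ± 0.28 in the Lyn-KO and by -1.66 ± 0.28 in the DKO cells. In Irf5-KO cells 2 of 15 were lower (median -0.59), where 0.737% of all features were called in either direction. All these differences use the same WT arrays, of which replicate 1 was highest in 15 of 15 of the targets. After CpG-B the list differed little, with 1 of 15 higher in Irf5-KO, 1 lower in the Lyn-KO and 1 higher in the DKO than in WT cells and medians of 0.10, -0.10 and 0.15. These comparisons called 25.5%, 25.2% and 44.8% of all features. The 1 gene called higher in Irf5-KO and in DKO cells was Cmpk2, a mitochondrial nucleotide kinase, by 0.57 ± 0.20 (limma adjusted p = 0.0415) and 0.67 ± 0.20 (adjusted p = 0.0097). The rise with CpG-B was larger than in WT for 10 of 15 in Lyn-KO (median 0.97) and 12 of 15 in DKO cells (median 1.10), beside 1.77 for Cxcl10 in both. Of all features, 6.05% and 17.3% were called higher in these interactions.

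Interferon gamma targets were set beside Cxcl9. Of 13 tested, 12 rose and 1 fell with CpG-B in WT cells (median 3.84), where 31.2% of all features were called higher and 37.2% lower. The 1 that fell was Ciita, the master activator of MHC class II genes, by -0.50 ± 0.19. Ido1 was not well above background on any unstimulated array and was kept through its CpG-B arrays. At baseline 0 of 13 targets differed from WT in Irf5-KO, 1 was lower in the Lyn-KO and 0 differed in the DKO cells, with medians of -0.09, -0.01 and 0.12. These comparisons called 0.737%, 4.58% and 6.78% of all features. After CpG-B 2 of 13 were higher in Irf5-KO, 1 was lower in the Lyn-KO and 4 were higher in the DKO cells than in WT (medians 0.24, -0.15 and 0.31, all features 0.02, 0.05 and 0.06), in comparisons that called 25.5%, 25.2% and 44.8% of features. Nos2, the inducible nitric oxide synthase, was at 4.18 ± 0.29 in Irf5-KO and 4.02 ± 0.36 in DKO cells against 3.23 ± 0.11 in WT and 2.56 ± 0.11 in Lyn-KO cells. It was called higher than WT in Irf5-KO (0.95 ± 0.18, adjusted p = 0.000449) and DKO (0.79 ± 0.18, adjusted p = 0.00111) and lower in Lyn-KO cells (-0.67 ± 0.18, adjusted p = 0.00802). DKO exceeded Lyn-KO cells in 7 of 13 (median 0.44), where 31.5% of all features were called, beside 0.91 for Cxcl9.

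**Figure D5:**
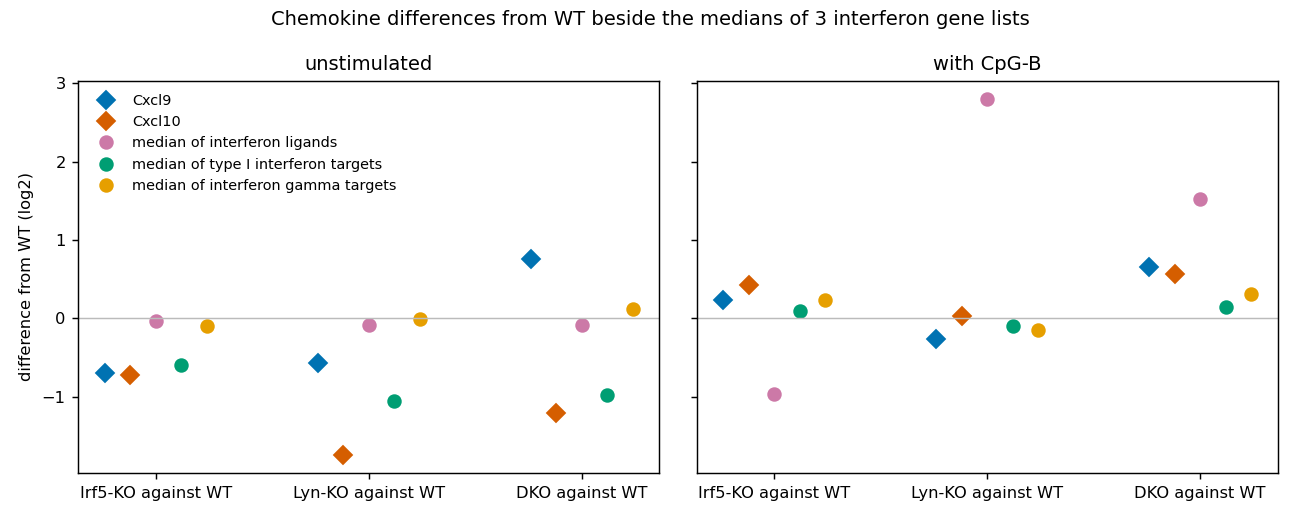
Difference from WT (y axis, log2) of Cxcl9 and Cxcl10 (diamonds) and of the median gene of 3 lists (circles) for the 3 knockouts (x axis), unstimulated and with CpG-B. After CpG-B the interferon ligand medians (-0.96, 2.80 and 1.52) spread far more widely than the chemokines. At baseline the values of Cxcl10 and of the type I interferon targets lie below WT in all 3 knockouts, which share the WT arrays. The Cxcl10 difference of Irf5-KO cells (-0.72) was not called, and was -0.35 without replicate 1 of the unstimulated WT.

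Genes between interferon and chemokine were counted with CpG-B in WT cells, where 31.2% of all features were called higher and 37.2% lower. Of 12 STAT and IRF genes (Batf2, a partner of Irf1, among them) 10 rose and 2 fell in WT cells. Irf7, the master regulator of type I interferon genes, rose by 5.90 ± 0.20, and Irf1, a direct activator of both chemokines, by 1.67 ± 0.20. Stat2 and Irf9, which act together downstream of the type I interferon receptor, differed from WT after CpG-B by at most 0.15 in any knockout, and neither was called. Irf1 was called higher in DKO than in WT cells, by 0.55 ± 0.20 (adjusted p = 0.032), with 7.0, 6.92 and 6.78 in DKO against 6.37, 6.38 and 6.29 in WT cells. Of 9 interferon receptor and kinase genes, 5 rose and 3 fell in WT cells, among them Ifngr1, the binding chain for interferon gamma, from 5.78 ± 0.06 to 1.81 ± 0.05. Ifngr1 after CpG-B was higher than WT by 0.35 in Irf5-KO and 0.22 in DKO cells and lower by -0.35 in Lyn-KO cells, all called. Of 5 NF-kB subunits 4 rose in WT cells. After CpG-B 2 of the 5 (Nfkb1 and Nfkb2) were higher in DKO than in WT cells, by 0.91 and 0.59, where 44.8% of all features were called. Of 8 inhibitors 7 rose in WT cells, and Usp18, which blocks the type I interferon receptor, was lower at baseline in Lyn-KO (-1.25) and DKO cells (-1.26). Of 8 genes of the Toll-like receptor 9 pathway 4 rose and 4 fell in WT cells, with Tlr9 itself higher by 0.44 and its adaptor Myd88 by 1.97.

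Of 8 other CXC chemokines tested, 2 rose and 2 fell with CpG-B in WT cells (median -0.19), where 31.2% of all features were called higher and 37.2% lower. Cxcl2, a neutrophil attractant, stood at -2.12 ± 0.25 in unstimulated and -2.34 ± 0.13 in CpG-B treated WT cells. After CpG-B it was higher than WT in Irf5-KO (1.73), Lyn-KO (1.96) and DKO cells (4.48), so its Lyn-KO value rose above WT where those of Cxcl9 and Cxcl10 lay at -0.26 and 0.03. In DKO cells 5 of 8 were higher than WT (median 1.44), where 44.8% of all features were called. Cxcl3, another neutrophil attractant, had the Cxcl9 order of means after CpG-B, at 1.23 ± 0.07 in DKO, -0.85 ± 0.41 in Irf5-KO, -1.27 ± 1.26 in WT and -1.51 ± 0.34 in Lyn-KO cells, of which the last 3 groups overlapped. Ppbp, a platelet chemokine, had that order too (-1.77, -2.17, -2.85 and -3.12), with no called difference from WT.

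Genes next to the chemokines on chromosome 5 were read to see whether neighbours moved too. Art3, an ADP-ribosyltransferase family gene whose span overlaps the chemokine genes, rose by 2.94 ± 0.33 in WT, 2.25 in Irf5-KO, 1.83 in the Lyn-KO and 1.93 in the DKO cells (limma adjusted p = 1.77e-07 in WT). On one side Naaa, a lysosomal amidase, fell by 3.17 ± 0.12 and Sdad1 by 1.85 ± 0.09 in WT cells, while Ppef2 changed by 1.22 ± 0.80 (adjusted p = 0.184). On the other side Scarb2, a lysosomal membrane receptor, rose by 0.85 ± 0.08, and Nup54, a nuclear pore protein, changed by 0.25 ± 0.32 (adjusted p = 0.515). After CpG-B Art3 differed from WT by -0.29 in Irf5-KO, -0.87 in the Lyn-KO and -0.70 in the DKO cells, and none was called.

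The genes most like each member were found by Pearson's r of log2 levels, given as a description since the arrays share their treatment. Over 24 arrays the 5 named genes most like Cxcl9 were Gm4951 (0.996), Batf2 (0.994), Gvin1 (0.991), Gm4759 (0.99) and Il12rb1 (0.99), a receptor chain for interleukin 12. The 5 most like Cxcl10 were Rsad2 (0.998), Irgm1 (0.997), Ifit2, Ifit3 and Oasl1 (0.996 each), of which 4 are on the type I target list and Irgm1 on the interferon gamma list. Over the 12 CpG-B arrays none of these genes was among the 5 most like either member. Those were C9orf72 (0.978), Sugt1 (0.962), Cop1 (0.957), Arrdc4 (0.956) and Rab9 (0.955) for Cxcl9. For Cxcl10 they were Id1 (0.979), Anapc5 (0.972), Vhl (0.971), Ubald1 (0.969) and Gm11545 (0.969), and all 5 of these were lower with CpG-B in WT cells, by -0.59 to -2.68.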

How the data were processed

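RNA from 24 cultures was hybridised in 1 colour (Cy3), 1 culture per array. The deposited intensity values are processed signals that Agilent's Feature Extraction software (10.7.3.1) wrote, per the file headers. Control spots and 4351 spot values marked as outliers were left out, spots of 1 probe were averaged, and log2(signal) minus the log2 of each array's 75th percentile was taken. Kept probes were those above background on each of the 3 arrays of some group (26640 of 55681 probes). A gene was represented by its brightest kept probe, named through RefSeq accessions (26762 probes named, 28919 not), which gave 12648 named and 7561 unnamed features.

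A limma 3.58.1 model (R 4.3.3) with 8 group means gave 21 comparisons, with Benjamini-Hochberg adjustment over 20209 features and 0.05 as threshold. The authors' deposited series table holds log2 values centred per probe, as found by comparing it with the scanner files. Arrays differed from the scaling used here by at most 0.0186, column medians ran from -0.273 to 0.375, and the table served as an alternative. The 3 slides equal the replicate numbers and hold 1 array of each group. The script was tested on simulated data. Members, gene lists and tests were chosen with earlier results of these data known. Any gene of the lists could be named, together with the 3 genes on either side of the members in the gene table and the 5 named genes most like each member. Alternatives were quantile normalization, normexp with offset 50, scaling on the median, no filter or a stricter filter, each probe alone, the replicate block, smaller fits, the series table, a trended robust prior and leaving out each array. Sequences are from RefSeq tables of GRCm38.p6. The number of arrays limits the precision.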

Additional observations from a re-analysis of the deposited data

Results flagged for a closer look

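The rise of Cxcl10 with CpG-B differed between genotypes by the interaction term in 2 cases. It was larger in Lyn-KO than in WT cells by 1.77 ± 0.43 (log2 ± SE, limma adjusted p = 0.0114) and larger in DKO than in WT cells by 1.77 ± 0.43 (adjusted p = 0.00401). The direction was the same on 3 of 3 slides in both. Of all features, 11.1% and 30.5% were called in these interactions, 6.05% and 17.3% as higher. Cxcl10 in Lyn-KO cells differed from WT by -1.74 unstimulated and by 0.03 with CpG-B. In DKO cells it differed from WT by -1.20 unstimulated and by 0.57 with CpG-B. The changes of the Cxcl9 rise and of the Cxcl10 rise in Irf5-KO cells were not called.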

How the results depend on the processing

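Of 781 recomputed values of the 42 chemokine results, 746 kept their side of the threshold, 15 lost a call, 20 gained one and no called value changed sign. Among the 746, 6 values that were not called differed in sign, 3 of them for Cxcl10 in Lyn-KO against WT with CpG-B (-0.06 to -0.03), 2 for the change of the Cxcl9 rise in DKO cells (0.11 and 0.65) and 1 for Cxcl9 in unstimulated Lyn-KO against Irf5-KO on the second probe (-0.05). Quantile normalization, normexp, median scaling, the stricter filter, the series table and the replicate block changed none of the 42 calls. Of these, the series table holds nearly the same signals centred per probe, and the stricter filter leaves the chemokine values unchanged, so both are weak checks. Deviations from the group means correlated weakly between arrays of the same replicate number (-0.0843 to 0.293, median 0.0549). Arrays of different numbers and groups gave somewhat lower values (-0.273 to 0.125, median -0.0299). The block left each log2 value as it was (1.77 for the Cxcl10 change in Lyn-KO cells), which the layout fixes, since each slide holds 1 array of every group.

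In the unstimulated comparisons, Cxcl10 in DKO against WT lost its call without the filter (-1.20, limma adjusted p = 0.0514), with only the 2 groups fitted (-1.20, adjusted p = 0.312) and with only the unstimulated arrays (-1.20, adjusted p = 0.131). Cxcl9 in DKO against Irf5-KO lost it in the same settings (1.46, adjusted p = 0.0803, 0.296 and 0.19) and on the second probe (1.20). Cxcl10 in Lyn-KO against WT lost it with only the 2 groups fitted (-1.74, adjusted p = 0.0968). Cxcl10 in Lyn-KO against Irf5-KO gained a call with only the 2 groups fitted (-1.02, adjusted p = 0.0307) and with the trended prior (-1.02, adjusted p = 0.0381). After CpG-B, the 8 differences called with the 12 CpG-B arrays (chosen after seeing the data) were also called with only the 2 groups fitted, namely Cxcl10 in Irf5-KO (0.43) and DKO (0.57) and Cxcl9 in DKO (0.66) against WT, Cxcl9 in DKO against Irf5-KO (0.42), Cxcl9 (0.91) and Cxcl10 (0.54) in DKO against Lyn-KO, and Cxcl9 (-0.50) and Cxcl10 (-0.40) in Lyn-KO against Irf5-KO.

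Leaving out 1 array at a time changed calls in 4 results. Cxcl10 in unstimulated DKO against WT ran from -1.65 to -0.83 and lost its call in 3 of 6 fits. Cxcl9 in unstimulated DKO against Irf5-KO ran from 0.71 to 1.92 and lost it in 4 of 6. Cxcl10 in unstimulated DKO against Irf5-KO ran from -0.93 to -0.21 and was called in 1 fit, without replicate 2 of the DKO. The change of the Cxcl10 rise in Irf5-KO ran from 0.77 to 1.47 and was called in 1 fit, without replicate 3 of the unstimulated WT (1.47).

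Counts of called features moved by over 1.5 times in some settings. Unstimulated, they went from 149 to between 1 and 97 for Irf5-KO against WT, from 925 to between 321 and 605 for Lyn-KO against WT, from 1370 to between 529 and 899 for DKO against WT, from 33 to between 0 and 54 for DKO against Lyn-KO, from 1081 to 706 for DKO against Irf5-KO and from 1229 to 771 for Lyn-KO against Irf5-KO. The changed responses of Lyn-KO went from 2237 to 1393, and the Irf5 dependence from 17 to between 3 and 28 unstimulated and from 730 to between 304 and 351 with CpG-B. With 3 arrays a group, differences within the spread of the unstimulated cultures were not detectable.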
